A study of Mus musculus with 16 samples.

Results

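DEAD and DEAH box proteins are enzymes that use ATP to unwind RNA or to remodel complexes of RNA and protein, and they take their names from amino acid motifs in the helicase core. In a mouse hepatocyte they work at nearly every step of an RNA's life, with large groups in ribosome assembly and in pre-mRNA splicing and smaller ones in mRNA export, translation and the sensing of viral RNA. eIF6, the protein depleted here, takes part in making the large (60S) ribosomal subunit and keeps free 60S subunits from joining the small subunit. The helicase genes were taken as all gene names on the array that begin with Ddx or Dhx and a number. There were 54 such genes (38 Ddx and 16 Dhx) with 77 probes, among 30214 gene names and 39429 probes in all. Of these, 49 genes (33 Ddx and 16 Dhx) with 70 probes were well above background on enough arrays to be tested, among 19364 tested genes.

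The cells were AML12, a single non-tumourigenic line of mouse hepatocytes that the labels call male. All cells received doxycycline, which switches on the shRNA, and insulin for 1 h, whose concentration is 100 nM in the labels' description and 100 mM in their treatment protocol. The shRNA was either scramble or, as the methods state, directed at eIF6, and the medium of all groups also held an insulin, transferrin and selenium supplement and dexamethasone. RNA from sucrose gradients was pooled into a light (subpolysomal) part and a heavy (polysomal) part, and each was hybridized to its own one-colour Agilent array, so that 4 groups of 4 arrays lay on 4 slides with 1 array of each group on every slide. The methods describe the 4 arrays of a group as biological replicates of this one line, and the labels do not name the cultures behind them.

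Between 20175 and 24950 probes per array were well above background, no spot was saturated, and 6 of 8 hepatocyte markers (Ttr, Hnf4a, Krt8, Krt18, Afp and Trf) were detected on all 16 arrays. Alb was detected on 7 arrays and Apoa1 on 2. Of other cell types, the cholangiocyte markers Krt7, Krt19 and Sox9, the stromal markers Col1a1 and Vim, the macrophage markers Cd68 and Csf1r and the endothelial markers Pecam1 and Kdr were on all 16 arrays. Emr1 was on 12, Des and Ptprc on 8 and Epcam on 6, whereas the stellate cell marker Lrat and the endothelial marker Cdh5 were on 0. The part of such transcripts in the results was not tested. The signal of Eif6, the target, was 12.95 ± 0.011 (log2, SD, n = 4) on polysomes of scramble cells and 11.89 ± 0.084 on those of eIF6 shRNA cells, a difference of -1.05 ± 0.08 (SE, limma adjusted p = 1.5e-07). In subpolysomal RNA its difference was 0.02 ± 0.08, with an adjusted p of 0.917.

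The other 5 helicase genes were not tested, since their single probes were rarely or never detected. Ddx3y, the Y-linked partner of Ddx3x, was above background on 0 of 16 arrays, and so were the germ line helicases Ddx4 (Vasa) and Ddx43 and the antiviral Ddx60. Ddx11, a DNA helicase despite its name, was detected on 2 arrays. Other Y-linked genes, chosen after the values of Ddx3y had been seen, were also at or near the background, with Eif2s3y and Kdm5d on 0 arrays, Usp9y on 1 and the 2 probes of Uty on 2 and 0. Xist, which marks an inactive X chromosome, was on 0 arrays with either of its probes.

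One part of the result concerns the signal of single probes of Ddx39b and Ddx5, so the sequences of these probes are given first. Ddx39b (also called UAP56) loads export factors on mRNA and acts in splicing, and Ddx5 (p68) is a splicing and transcription cofactor. The files list RefSeq transcripts for 73 of the 77 helicase probes, and the 4 probes without one belong to Ddx3x, Ddx5, Ddx26b and Ddx39b. For each probe of Ddx39b and Ddx5 the first 30 of its 60 bases are shown, in capitals for the probe that matches no RefSeq transcript in the files. These 2 probes were the ones whose split between the fractions differed most from that of other probes of the same gene.
Ddx39b A_55_P2143119: GCGTTACTAAGCAAGCACTGCCATTGAACT
Ddx39b A_55_P2016478: gctggcttttcagatcagcaaggaatatga
Ddx39b A_55_P2069246: caccaccactcctaaacctagtcctgattt
Ddx5 A_55_P2076805: GGGGATGGAGGACTAGTGATCGGCTGGCTG
Ddx5 A_55_P2076797: agctgcccaaatttgagaagaatttttatc
Ddx5 A_55_P1990663: caaaagtaactgtacagtgatttcaaatac
Ddx5 A_52_P611798: aaattacctttgaagttttaaaagacagtc

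On mm9, the probe of Ddx39b in capitals lies at chr17:35379420-35379479 on the plus strand, and the others at chr17:35381433-35381492 and chr17:35390546-35390605. The probe of Ddx5 in capitals lies at chr11:106645047-106645106 on the minus strand, between A_55_P2076797 (chr11:106648225-106648284) and A_55_P1990663 (chr11:106642882-106642941), and A_52_P611798 lies at chr11:106641708-106641767. The capital probes are assigned by the files to Ensembl transcripts of the same genes. No exon annotation of mm9 was used here, so whether a probe lies in an exon, an intron or a UTR was not determined.

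The first comparison asked how helicase mRNAs were spread between polysomes, where mRNAs carry many ribosomes, and the lighter fractions of the same kind of cell. Its measure was the polysomal minus the subpolysomal log2 signal, after quantile normalization over all arrays, which gives every array the same distribution and so places each gene relative to the others. In scramble cells 24 of the 49 helicase genes were lower on polysomes and 7 were higher, at an adjusted p under 0.05 (limma, Benjamini-Hochberg over all genes). Among all 19364 genes, 28.4% were lower and 31.7% were higher. The median difference of the helicase genes was -0.37, against 0.04 for all genes. In eIF6 shRNA cells, which were measured on other arrays, 24 were lower and 5 were higher, against 28.7% and 32.1% of all genes, and the medians were -0.34 and 0.03. Within the helicases, 22 genes were called lower in both kinds of cell and 5 were called higher in both, and 45 of 49 had the same sign. The matching shares over all genes were not counted, so this agreement is not read as a trait of the helicases. Scramble and eIF6 shRNA differences correlated at 0.97 (Pearson) over the 49 helicases and at 0.88 over all 19364 genes.

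The scale of this comparison depends on the normalization. Scaling to the 75th percentile moved the median of all genes to -0.34 and that of the helicases to -0.50 in scramble cells, with 30 helicase genes lower and 7 higher (61.2% and 14.3%, against 43.8% and 21.2% of all genes). Scaling to 7 spike-in probes moved the medians to 1.52 and 1.36, with 2 helicase genes lower and 39 higher (4.08% and 79.6%, against 2.05% and 69.3% of all genes). Relative to the median of all genes, the helicase median lay 0.41 lower with quantile normalization (a difference of -0.41) and at -0.16 with either of these scalings. Each of these scalings shifts all genes of an array by the same amount, so their relative values had to be equal. The values that follow are those of the quantile normalization and are relative in this sense.

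**Figure D1:**
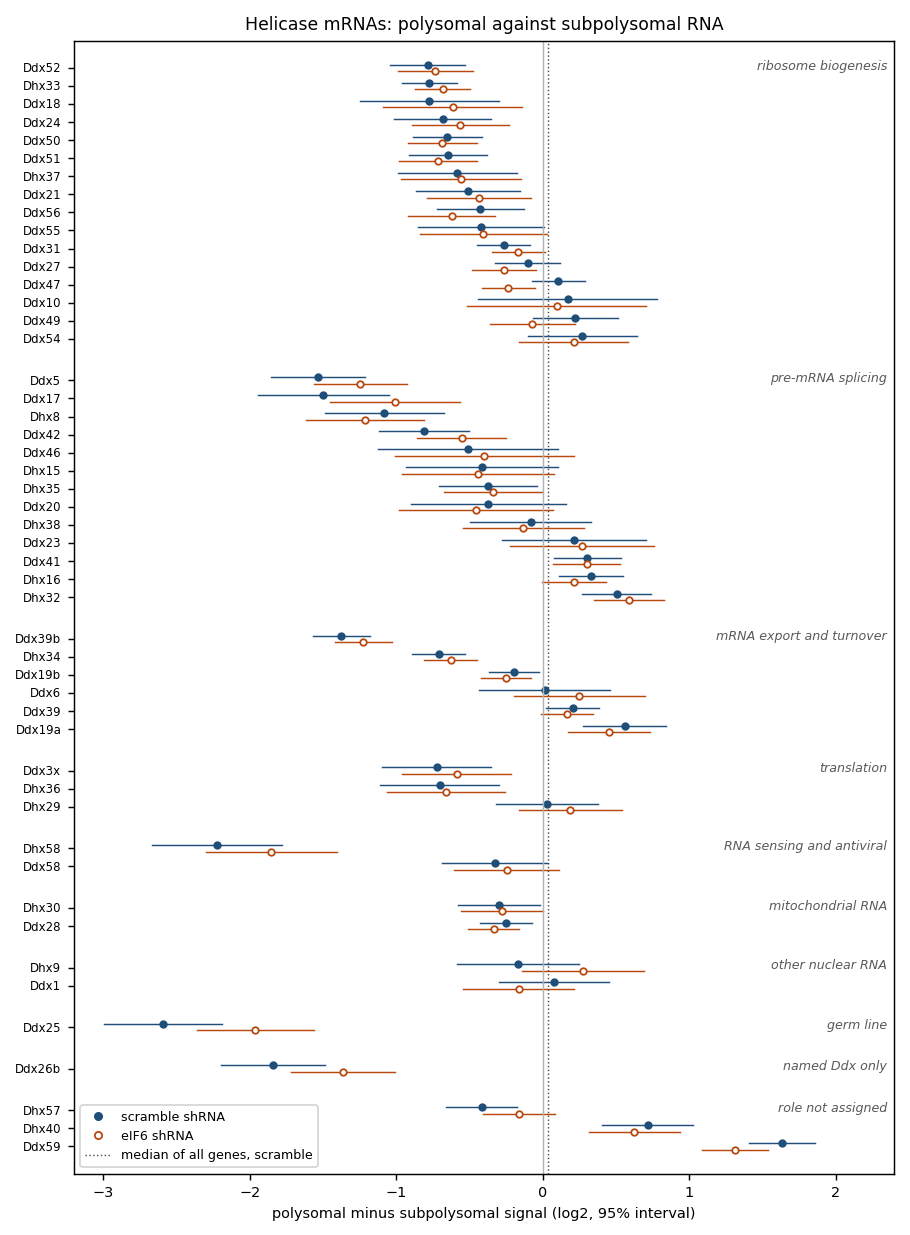
Polysomal minus subpolysomal log2 signal (x axis) of the 49 tested helicase genes (y axis, grouped by role), with 95% intervals from the linear model, for scramble cells (filled points) and eIF6 shRNA cells (open points), 4 arrays per group. The dotted line is the median of all genes in scramble cells. Most ribosome biogenesis genes lie left of the line, and the group runs from -0.78 to 0.27 in scramble cells. Both points of a gene have the same sign in 45 of 49 genes, a share that was not counted over all genes. Those of Ddx25 (-2.59 and -1.96) and Ddx17 (-1.50 and -1.01) are among the pairs that lie apart, but neither change between the shRNAs was called. The polysomal signal of Ddx25 was low, and a probe of Ddx17 was not detected on polysomes.

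Helicases of ribosome assembly formed the largest group. Of its 16 tested genes, 10 were lower on polysomes in scramble cells and 0 were higher, against 28.4% and 31.7% of all genes, with a median of -0.47. In eIF6 shRNA cells 11 were lower and 0 were higher, against 28.7% and 32.1%, with a median of -0.50. The lowest were Ddx52, which acts on the precursor of the small subunit, at -0.78 ± 0.12 (SE) in scramble cells and -0.73 in eIF6 shRNA cells, Dhx33 at -0.77 and -0.68, and Ddx18 at -0.77 and -0.61. Ddx24, Ddx50, Ddx51, Dhx37, Ddx21, Ddx56 and Ddx31 were also lower in scramble cells, by 0.27 to 0.68 in size. Ddx55 had -0.42, Ddx27 -0.10, Ddx47 0.10, Ddx10 0.17, Ddx49 0.22 and Ddx54 0.27, and none of these was called there. Ddx27 and Ddx47 were called lower in eIF6 shRNA cells, at -0.26 and -0.24. For neither gene was the change in this fraction difference between the shRNAs called.

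Splicing helicases were spread over a wider range. Of 13 genes, 4 were lower and 3 were higher in scramble cells, with a median of -0.37. The share called lower was close to the 28.4% of all genes, and 31.7% of all genes were higher. The 4 lower genes were Ddx5 at -1.54 ± 0.15, Ddx17 (p72, the close relative of Ddx5) at -1.50, Dhx8, which releases spliced mRNA from the spliceosome, at -1.08, and Ddx42 at -0.81. The value of Ddx5 averages its probe in capitals (-3.76) with 3 RefSeq probes that lay between -1.01 and -0.55. The 3 higher genes were Dhx32 at 0.50, Dhx16 at 0.33 and Ddx41 at 0.30. Roles were assigned from general knowledge and were not tested here, that of Dhx32 in splicing included. In eIF6 shRNA cells Ddx5 had -1.25, Ddx17 -1.01, Dhx8 -1.21 and Ddx42 -0.56, all called lower, whereas Dhx32 and Ddx41 were called higher and Dhx16 was not, at 0.21.

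Ddx17 is named beyond the rule for named genes, after its values were seen, because its probes disagreed. One probe gave -0.55 in scramble cells and was not called (adjusted p = 0.0597). The other gave -2.45, but it was well above background on 3 of 4 subpolysomal arrays and 0 of 4 polysomal arrays, so that only a bound holds, of at least 2.98-fold lower signal on polysomes. The bound sets the dim side at the higher of the probe's own signal and the lowest signal among detected probes of each array.

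Of the 3 tested helicases that help ribosomes through structured mRNA, Ddx3x and Dhx36 were lower on polysomes. The signal of Ddx3x, a cofactor of initiation, was 12.23, 12.17, 12.21 and 12.28 on the subpolysomal arrays of scramble cells and 11.30, 11.31, 11.41 and 11.97 on the polysomal arrays. The fractions did not overlap, and the fourth polysomal array lay nearest to the subpolysomal ones. The difference was -0.73 ± 0.17 (adjusted p = 0.0021) in scramble and -0.59 in eIF6 shRNA cells, and its 3 probes gave between -0.55 and -0.84 in scramble cells. Dhx36, which unwinds G-quadruplexes, had -0.71 and -0.66. Dhx29, which binds the small subunit during scanning, had 0.03 ± 0.16 and 0.19, and neither was called.

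Export and turnover helicases were mixed, with 3 of 6 genes lower and 2 higher in scramble cells, against 28.4% and 31.7% of all genes. Ddx39b had -1.38 ± 0.09, a value that rested on its probe in capitals, and with RefSeq probes alone it had -0.09 (adjusted p = 0.566) and was not called. The other 2 lower genes were Dhx34 (a factor of nonsense-mediated decay) at -0.71 and Ddx19b (which acts at the nuclear pore) at -0.20. Ddx19a, the paralog of Ddx19b, was higher at 0.56 ± 0.13, and Ddx39, the paralog of Ddx39b, at 0.20. Ddx6, a factor of decapping and mRNA storage, had 0.01. Whether probes of these paralog pairs bind each other's mRNA was not tested.

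The largest differences of either sign lay outside these groups. Ddx25, a helicase known from testis, had signals of 6.48, 6.12, 6.49 and 5.86 on subpolysomal and 3.58, 3.94, 3.90 and 3.16 on polysomal arrays of scramble cells, which is 6.03-fold lower on polysomes (-2.59 ± 0.19, adjusted p = 2.6e-08). In eIF6 shRNA cells the difference was -1.96. Over 12 alternatives of processing the scramble difference of Ddx25 was called lower each time, but its size varied, from -3.27 to -0.88. Dhx58 (LGP2), a regulator of the viral RNA sensor RIG-I, had -2.22 ± 0.21 in scramble and -1.85 in eIF6 shRNA cells, and its probe was well above background on 14 of 16 arrays. The scramble difference of Dhx58 ran from -2.95 to -0.56 over the same alternatives. Ddx58, which encodes RIG-I itself, had -0.33 and -0.25, and neither was called. Ddx59 stood at the other end, with 6.68, 6.87, 6.86 and 6.93 on subpolysomal and 8.40, 8.47, 8.55 and 8.46 on polysomal arrays of scramble cells, 3.10-fold higher on polysomes (1.63 ± 0.11, adjusted p = 8.1e-09). Its 2 probes gave 1.67 and 1.60. Dhx40 had 0.71 ± 0.14 in scramble and 0.63 in eIF6 shRNA cells, both called.

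The mean of Ddx39b hid probes that went opposite ways. Its probe in capitals gave 11.38, 11.17, 11.42 and 11.39 on the subpolysomal arrays of scramble cells and 7.21, 7.36, 7.46 and 6.98 on the polysomal arrays, a difference of -4.09 ± 0.12 (adjusted p = 4.2e-12 over all probes). The probe A_55_P2016478 gave 10.41, 10.30, 10.63 and 10.97 on subpolysomal and 10.82, 10.95, 10.95 and 11.03 on polysomal arrays, and was called higher on polysomes at 0.36 ± 0.12 (adjusted p = 0.022). The third probe gave -0.39 ± 0.20 (adjusted p = 0.111). Over all probes, 27.7% were called lower and 32.7% higher in this comparison. The 3 probes thus spanned 4.45 on the log2 scale.

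Ddx5 showed the same split between probes, with all of them on one side. The probe in capitals gave 11.16, 10.89, 11.09 and 10.78 on subpolysomal and 7.14, 7.35, 7.52 and 6.89 on polysomal arrays of scramble cells, a difference of -3.76 ± 0.14. The 3 RefSeq probes gave -1.01 ± 0.28, -0.83 ± 0.21 and -0.55 ± 0.20, all called lower, and the span was 3.21. In eIF6 shRNA cells the capital probes of Ddx39b and Ddx5 gave -3.70 and -3.67, both called lower, against 27.3% of all probes. Under spike-in scaling they still gave -2.36 and -2.05 in scramble cells, called lower, while the other 5 probes gave between 0.90 and 2.21.

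Such spans were rare on the array. Of 3433 genes with more than 1 probe well above background on all 16 arrays, 22 (0.641%) had a span over 3, and the median span was 0.30. Among 14 such helicase genes, Ddx39b and Ddx5 were the 2 over 3, and the median was 0.22. In 589 genes with both kinds of probe, the probes without a match lay lower in 61.1% of genes, with a median difference of -0.12. They lay more than 1 lower in 17.3% of genes and more than 3 lower in 12 genes (2.04%). For Ddx3x, the third helicase in that set, the difference was -0.10.

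**Figure D2:**
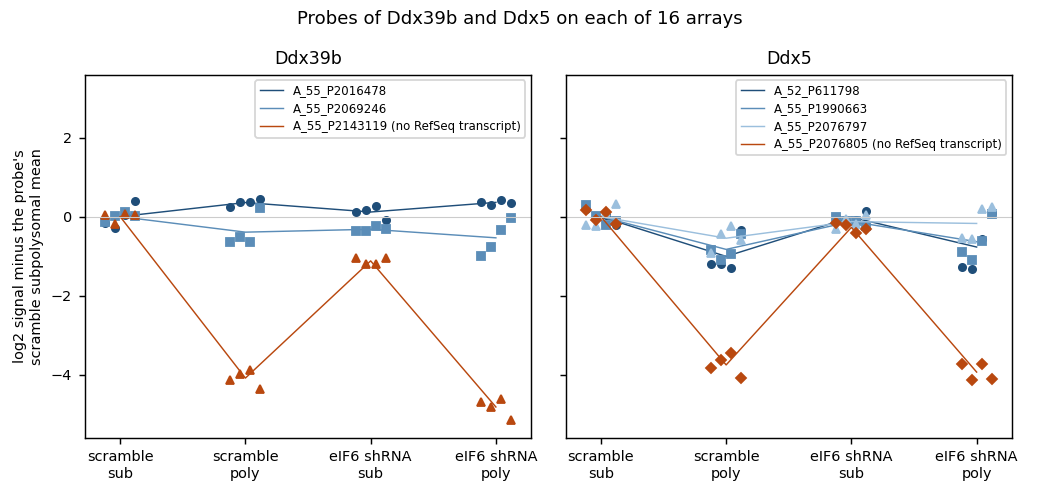
Log2 signal of each probe of Ddx39b (left) and Ddx5 (right) on each of 16 arrays, minus that probe's mean on the 4 subpolysomal arrays of scramble cells, so that levels are not compared between probes; points are arrays and lines join group means (x axis, shRNA and fraction). The orange probes, which match no RefSeq transcript in the files, drop by 3.7 to 4.1 on polysomes, and only that of Ddx39b differs between the shRNAs at an adjusted p under 0.05.

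The second comparison asked whether eIF6 depletion changed helicase mRNAs on polysomes. Ddx47 and Ddx39b were lower in eIF6 shRNA cells and 0 helicases were higher, that is 2 of 49 genes, whereas 10.7% of all genes were called lower and 11.1% higher. Ddx47, which processes the precursor of the small subunit's RNA, had 11.31, 11.42, 11.39 and 11.34 on the polysomal arrays of scramble cells and 11.02, 11.07, 10.76 and 10.92 on those of eIF6 shRNA cells. The groups did not overlap, and the difference was -0.42 ± 0.08 (1.34-fold, adjusted p = 0.0018), with -0.37, -0.39, -0.27 and -0.66 on the 4 slides. In subpolysomal RNA it had -0.08 ± 0.08 (adjusted p = 0.522).

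Ddx39b had 10.86, 11.00, 10.99 and 11.15 on the polysomal arrays of scramble cells and 10.60, 10.61, 10.86 and 10.76 on those of eIF6 shRNA cells. The highest array of the second group equalled the lowest of the first at these decimals. The difference was -0.29 ± 0.09 (adjusted p = 0.032), between -0.54 and -0.10 within the slides. It rested on the probe in capitals, which gave -0.73 ± 0.12 (adjusted p = 0.00052), whereas the others gave 0.00 ± 0.12 and -0.14 ± 0.20. Of all probes, 10.3% were called lower. With RefSeq probes alone the gene had -0.07 (adjusted p = 0.745).

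The remaining helicases had polysomal differences from -0.23 to 0.38 and were not called. Over all 49 helicases the median was 0.05 against 0.02 for all genes, and every 95% interval lay within 1 of 0. Quantile normalization gives polysomal arrays of both shRNAs the same distribution, so a loss common to all mRNAs would not show in these values. With spike-in scaling the medians were -0.41 for helicases and -0.47 for all genes. In that fit 0 helicases were called, against 5.45% of all genes lower and 0.522% higher. Its SE for the capital probe of Ddx39b was 0.50, against 0.12 with quantile normalization. Whether all mRNAs fell was not tested. Under quantile normalization the helicase median moved with single arrays. It was 0.16 without the fourth polysomal array of scramble cells, and 0.13, 0.08 and -0.01 without the first, the second and the fourth polysomal array of eIF6 shRNA cells. The initiation helicases Ddx3x, Dhx36 and Dhx29 had 0.16 ± 0.17, 0.04 ± 0.19 and 0.01 ± 0.16. RIG-I (Ddx58) had 0.36 ± 0.17 and Dhx58 had 0.22 ± 0.21, and neither was called. Without the fourth polysomal array of scramble cells, Ddx47 was still called lower and Ddx39b was not, and Ddx54, Ddx58 and Dhx30 were called higher.

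**Figure D3:**
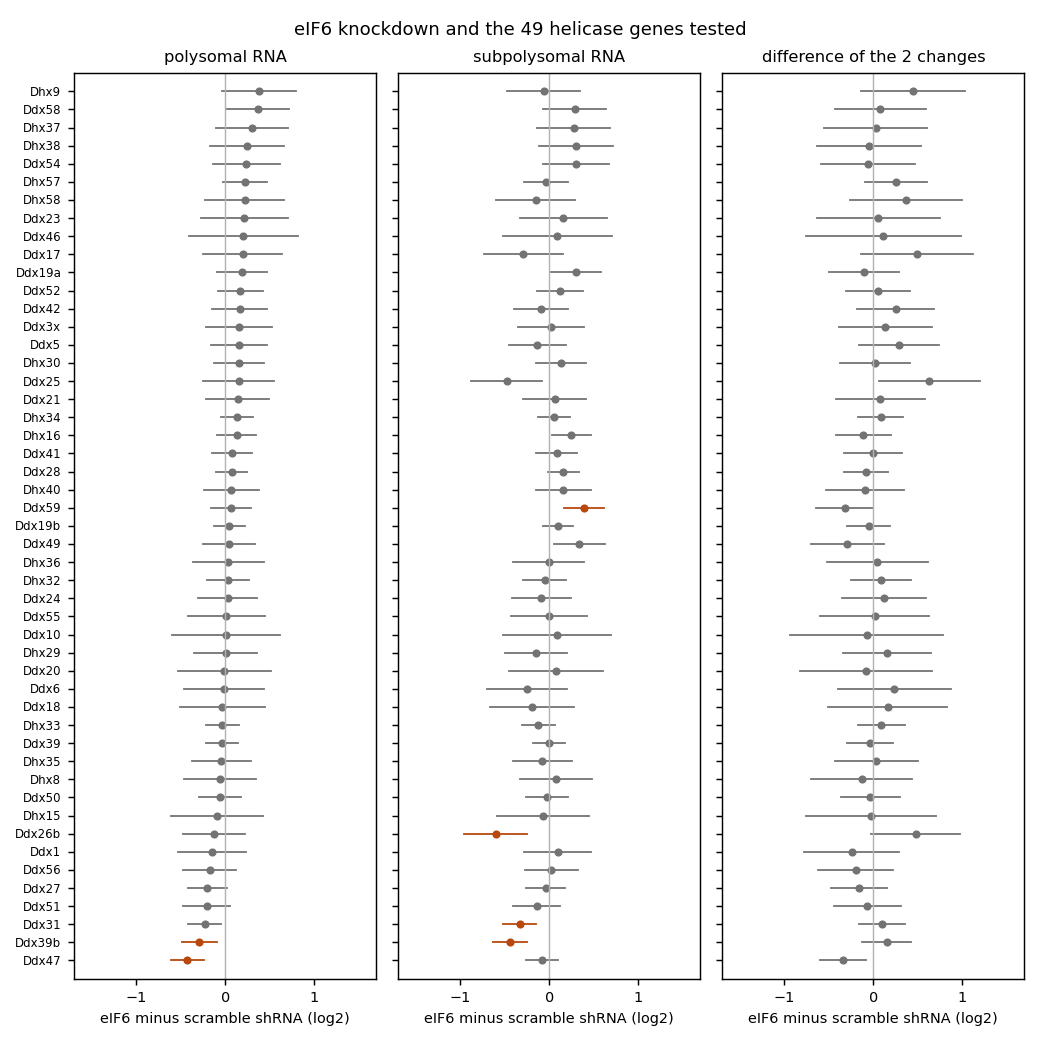
Difference between eIF6 and scramble shRNA cells (x axis, log2, with 95% intervals from the linear model, 4 arrays per group) for the 49 tested helicase genes (y axis, ordered by the polysomal difference) in polysomal RNA, in subpolysomal RNA, and the first minus the second. Genes called at an adjusted p under 0.05 are orange: 2 in polysomal RNA, 4 in subpolysomal RNA and 0 in the right panel.

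In subpolysomal RNA 3 of 49 helicases were lower in eIF6 shRNA cells and 1 was higher, against 12.3% and 11.8% of all genes. The median was 0.00 for helicases and 0.02 for all genes, and with spike-in scaling it was -0.23 for both. Ddx31, another ribosome assembly helicase, had 10.97, 10.79, 10.95 and 11.09 in scramble and 10.47, 10.66, 10.64 and 10.70 in eIF6 shRNA cells. The groups did not overlap, the difference was -0.33 ± 0.09 (adjusted p = 0.0104), and the slides gave -0.43, -0.32, -0.31 and -0.27. Its 2 probes gave -0.38 and -0.28. On polysomes Ddx31 had -0.23 ± 0.09 (adjusted p = 0.0688), and its probes gave -0.31 ± 0.08 (adjusted p = 0.0083, called) and -0.15 ± 0.10 (adjusted p = 0.355). The gene was called lower there with the brightest probe, with RefSeq probes alone, with the slide as a block and without the third polysomal array of eIF6 shRNA cells.

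Ddx59 was the only helicase called higher, in subpolysomal RNA, with 6.68, 6.87, 6.86 and 6.93 in scramble and 7.28, 7.15, 7.43 and 7.04 in eIF6 shRNA cells. These groups did not overlap either, and the difference was 0.39 ± 0.11 (adjusted p = 0.0143), between 0.22 and 0.57 within the slides. Of its probes, one was called (0.34, adjusted p = 0.0105, against 11.4% of all probes called higher) and one was not (0.43, adjusted p = 0.0627). Without the third subpolysomal array of eIF6 shRNA cells the gene had 0.32 (adjusted p = 0.0503).

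Ddx39b was lower in subpolysomal RNA as well, with 12.29, 12.23, 12.45 and 12.53 in scramble and 11.94, 11.91, 11.98 and 11.89 in eIF6 shRNA cells, a difference of -0.44 ± 0.09 (adjusted p = 0.0024). Again the capital probe carried it. That probe gave 11.38, 11.17, 11.42 and 11.39 in scramble and 10.30, 10.14, 10.15 and 10.30 in eIF6 shRNA cells, -1.12 ± 0.12 (adjusted p = 1.3e-05), while the others gave 0.12 ± 0.12 and -0.32 ± 0.20 and were not called. Of all probes, 11.9% were called lower. The capital probe of Ddx5 gave -0.27 ± 0.14 in subpolysomal and -0.18 ± 0.14 in polysomal RNA, and neither was called.

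Ddx26b, which carries a Ddx name but encodes a relative of an Integrator subunit, was lower at -0.60 ± 0.17 (adjusted p = 0.0153). Its scramble arrays ran from 6.16 to 6.68 and its eIF6 shRNA arrays from 5.31 to 6.16, so that the ranges met at these decimals. One of its 2 probes was dim in subpolysomal RNA, detected on 3 of 4 scramble and 2 of 4 eIF6 shRNA arrays, and the brighter one gave -0.42 alone (adjusted p = 0.0821). Without the third subpolysomal array of scramble cells the gene had -0.52 (adjusted p = 0.0517).

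**Figure D4:**
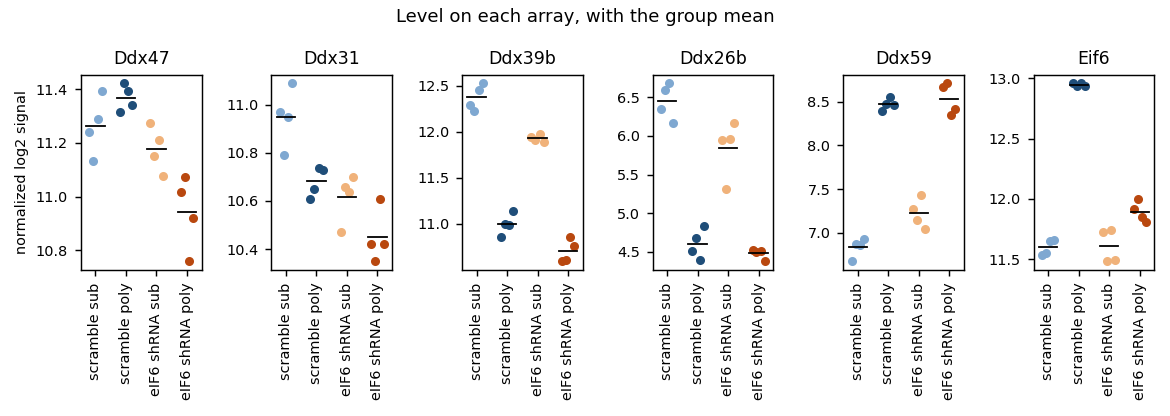
Normalized log2 signal (y axis, a separate scale for each gene) on each array, with the group mean as a line, for the 5 helicase genes called between the shRNAs and for Eif6; the x axis gives shRNA and fraction, 4 arrays per group. Ddx47 separates the shRNAs on polysomes (11.31 to 11.42 against 10.76 to 11.07), and Ddx31, Ddx39b and Ddx59 separate them in subpolysomal RNA.

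The third comparison took the polysomal change minus the subpolysomal change, that is the change in translational efficiency. None of the 49 helicases was called by limma, in either direction, against 1.11% of all genes lower and 0.403% higher. At an unadjusted p under 0.05 there were 3 helicases (6.12%), Ddx47 at -0.34 ± 0.12, Ddx59 at -0.32 ± 0.15 and Ddx25 at 0.63 ± 0.27, whereas 12.5% of all genes passed that level, and the smallest adjusted p was 0.224. The median was 0.04 for helicases and 0.02 for all genes, and with spike-in scaling it was -0.16 and -0.22. The 95% interval reached 0.47 to either side at the median, and 45 of 49 intervals lay within 1 of 0, so smaller changes could not be told from none. For Ddx3x the interval ran from -0.39 to 0.66, for Dhx29 from -0.34 to 0.65 and for Dhx36 from -0.53 to 0.61.

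Helicase signals were uneven between the polysomal arrays of one group. On the fourth polysomal array of scramble cells the helicases lay 0.25 above their group means at the median, while all genes lay at -0.02, and 36 of 49 helicase genes had their highest value of the group there, against 34.6% of all genes. On the fourth polysomal array of eIF6 shRNA cells these values were 0.18, -0.02, 31 of 49 and 30.4%. Subpolysomal arrays had helicase medians between -0.03 and 0.06. Both of these polysomal arrays were then left out, an alternative chosen after the data had been seen. In that fit 28 helicases were lower and 5 were higher on polysomes in scramble cells, and 30 and 5 in eIF6 shRNA cells. The helicase medians were -0.46 and -0.36, against 0.02 and 0.03 for all genes. Between the shRNAs on polysomes, 1 (Ddx47) was lower and 2 (Ddx54 and Ddx58) were higher, and 0 were called for translational efficiency. The shares of all genes called in that fit are not given here, so these counts cannot be set against them.

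**Figure D5:**
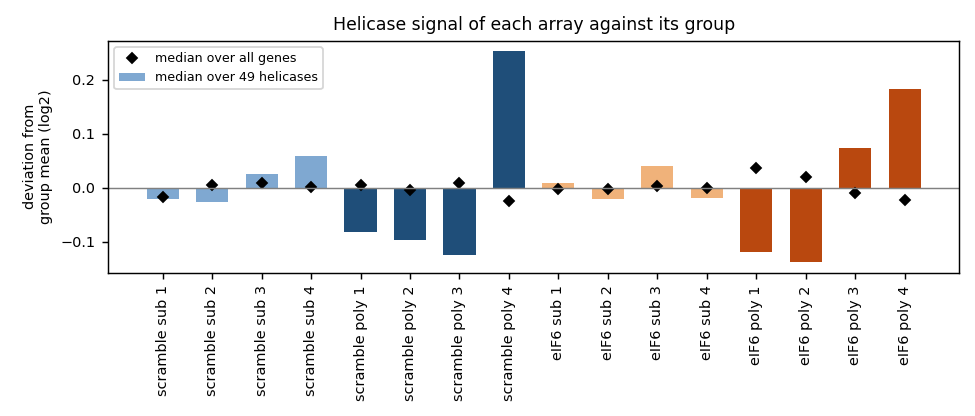
Median deviation of the 49 helicase genes from their group mean on each of the 16 arrays (bars, log2), with the median over all genes (diamonds). The fourth polysomal arrays of scramble and eIF6 shRNA cells stand highest, at 0.25 and 0.18, with all genes at -0.02 on both.

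Other RNA helicases and helicase cofactors, from a list of 41 genes without a Ddx or Dhx name, give the surroundings. Of these, 37 were on the array and 35 were tested. In scramble cells 16 were lower on polysomes and 7 were higher, with a median of -0.32, against 28.4% and 31.7% of all genes and a median of 0.04. The lowest adjusted p values were those of Eif4a2, a DEAD box helicase of initiation (-1.84 ± 0.08), its cofactor Eif4b (-1.64 ± 0.12), the exon junction factors Magoh (1.75 ± 0.09) and Cwc22 (-1.31 ± 0.11), and Rbm5 (-1.11 ± 0.07), a splicing regulator. In eIF6 shRNA cells 13 were lower and 8 were higher, with a median of -0.09, against 28.7%, 32.1% and 0.03.

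Between the shRNAs, 1 gene of that list was lower and 2 were higher on polysomes, against 10.7% and 11.1% of all genes. In subpolysomal RNA 2 were lower and 3 were higher, against 12.3% and 11.8%. Cwc22 was lower in both, by -0.72 ± 0.11 and -1.41 ± 0.11. Ifih1, which encodes the RNA sensor MDA5, was higher in both, by 0.85 ± 0.18 and 0.61 ± 0.18. Ascc3 was higher on polysomes (0.35), and in subpolysomal RNA Eif4b (0.53) and Nkrf (0.38) were higher and Helz2 (-0.29) was lower. Cwc22 was also the 1 gene of the list called for translational efficiency, at 0.69 ± 0.15 (adjusted p = 0.038, against 0.403% of all genes called higher), a call lost in 13 of the 16 fits that left out 1 array.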

How the data were processed

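The deposited scanner files hold an intensity per spot that the authors' software (Agilent Feature Extraction, version 10.7.7.1 in the methods and processing notes, 10.7.3.1 in the file headers) had corrected for background. The deposited series table holds log2 values that the authors had quantile normalized. It served as an alternative, and its columns correlated with the scanner values at 0.995 or more. Probes well above background on at least 2 of 4 arrays of a group were kept, and their log2 intensities were quantile normalized over 16 arrays and averaged per gene name with data.table (version 1.17.8) in R 4.3.3. Flagged spots left 45 missing values. limma 3.58.1 with 4 group means gave 5 contrasts, adjusted by Benjamini-Hochberg over 19364 genes or 25259 probes, called under 0.05. Precision is limited by the number of arrays.

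The members and lists were chosen with earlier results of these data known. Values on every array are given for genes called between the shRNAs with all probes detected on all 16 arrays, for the genes lowest and highest on polysomes, and for Ddx3x. Contrast values are given for other called genes and for a set of initiation and antiviral helicases. Only called genes of the list of other helicases are named, up to 5 per contrast. The fit was tested on simulated data. Alternatives were scaling by the 75th percentile, scaling by 7 spike-in probes, normalization within each fraction, normexp (offset 50), a detection filter of 4 arrays or none, the brightest probe, the authors' table, slide or replicate number in the model, and each array left out. RefSeq probes alone, and both polysomal arrays with replicate number 4 left out, were alternatives chosen later, with the data seen. Figures used matplotlib 3.10.9 in Python 3.11.15. Coordinates and gene names (mm9) are those of the files.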

Additional observations from a re-analysis of the deposited data

Results flagged for a closer look

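In 4 of 64 groups of 4 arrays, 1 array lay far from the other three (the gap to its neighbour over the range of the group exceeded Dixon's 95% limit), where chance gives about 1 in 20 groups. In polysomal RNA of scramble cells this ratio was 0.832 for Dhx40 (9.03, the others between 8.44 and 8.54), 0.846 for the Ddx39b probe A_55_P2069246 (15.43, the others between 14.55 and 14.69) and 0.904 for the Ddx5 probe A_52_P611798 (11.88, the others between 10.92 and 11.01). In all 3 it was the fourth array, on which most helicases stood high. In subpolysomal RNA of scramble cells it was 0.864 for the Ddx39b probe A_55_P2143119 (11.17, the others between 11.38 and 11.42). No helicase was called for the difference between its polysomal and subpolysomal change.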

How the results depend on the processing

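Counts of called helicases in the 5 comparisons kept within 1.5 times of the reported ones under 75th percentile scaling, either other detection filter, the authors' table, the slide as a block and the replicate block. The same held for normalization within each fraction, which was applied only to the comparisons between the shRNAs and not to those between fractions. Exceptions were as follows, and the cause was not tested except where the alternative itself drops a probe or an array. With spike-in scaling, 0 helicases were called lower on polysomes between the shRNAs, against 5.45% of all genes. In subpolysomal RNA 0 were lower or higher, against 1.78% and 0.222%. Between fractions 2 were lower and 39 higher in scramble cells, against 2.05% and 69.3%. In eIF6 shRNA cells these were 0 and 32, against 2.55% and 58.0%. Under this scaling 4 genes turned in scramble cells, Ddx5 to 0.29, Ddx39b to 0.39, Ddx3x to 1.18 (called) and Dhx36 to 1.04. With normexp, 1 helicase was lower on polysomes between the shRNAs. With the brightest probe or with RefSeq probes alone, 1 (Ddx31) was lower in subpolysomal RNA, and Ddx39b was no longer called in any comparison tried (-0.14 and -0.07 on polysomes, -0.32 and -0.08 in subpolysomal RNA). Without both polysomal arrays with number 4, 1 was lower and 2 were higher on polysomes between the shRNAs.

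For the list of other helicases and cofactors, spike-in scaling gave 0 lower and 0 higher between the shRNAs in either RNA, 0 higher for translational efficiency, and between fractions 0 lower and 27 higher in scramble and 0 and 23 in eIF6 shRNA cells. The 1 gene called for translational efficiency became 0 with 75th percentile scaling, normalization within each fraction, no filter, the slide block, the replicate block within each shRNA and RefSeq probes alone, and 2 with normexp. Between fractions of eIF6 shRNA cells, 75th percentile scaling gave 4 higher. Between the shRNAs in subpolysomal RNA, 1 was higher with normalization within each fraction or no filter, and 4 were lower with normexp or the slide block. On polysomes 2 were lower with normexp, 1 was higher with no filter, and 3 were lower and 5 higher without both polysomal arrays with number 4.

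Leaving out each array in turn gave 1 to 3 helicases lower and 0 to 3 higher on polysomes between the shRNAs, 2 to 4 lower and 0 to 2 higher in subpolysomal RNA, 0 for translational efficiency, 22 to 28 lower and 5 to 7 higher between fractions in scramble and 20 to 27 and 4 to 5 in eIF6 shRNA cells. For the other list the ranges were 1 to 3 lower and 1 to 7 higher on polysomes (7 without scramble array 4), 1 to 3 lower and 1 to 3 higher in subpolysomal RNA, and 0 to 1 for translational efficiency. The shares of all genes called in these fits are not given here, so the counts show only how the calls moved. Ddx47 was called in all 8 such fits. Ddx39b on polysomes was lost in 5 of 8, without scramble arrays 2, 3 or 4 or eIF6 shRNA arrays 1 or 2, with -0.34 to -0.24 over the 8 fits.

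Replicate numbers did not meet the rule for pairing (every correlation of deviations over 0.1). Polysomal and subpolysomal arrays of the same number and shRNA correlated between -0.16 and 0.03 in 8 pairs. Across the shRNAs, arrays of the same number correlated between -0.10 and 0.06 in subpolysomal RNA and at 0.12, -0.04, 0.03 and 0.41 in polysomal RNA, so that the polysomal arrays with number 4 deviated together. The replicate block gave 2 helicases lower and 0 higher on polysomes, 3 and 1 in subpolysomal RNA, and 24 lower and 6 higher between fractions in scramble cells, and pairing within each shRNA gave 0 for translational efficiency. Dim probes limit Dhx58, Ddx17 and Ddx26b, and a low polysomal signal limits the fold of Ddx25.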
